A study of Macaca mulatta with 6 samples.

Results

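The measurements below describe 7 regulators of the corpus luteum, the progesterone-secreting gland left in the ovary once an egg is released. They are the nuclear receptors NR5A1, NR5A2 and NR0B1, the hormone subunit INHA, the progesterone receptors PGR and PGRMC1 and the prolactin receptor PRLR. They are 7 of 14132 named genes. Every probe set annotated to one of these symbols was taken, which gave 16 of the 52766 probe sets tested, with 3 for NR5A2, 4 for PGRMC1, 5 for PRLR and 1 for each of the other 4 genes. The rule goes by gene symbol and sets no threshold on a measured value.

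The samples were luteal cells of rhesus macaques, dispersed from corpora lutea collected on day 12 after the luteinizing hormone (LH) surge. The treated group received 1 µM T0901317, a synthetic compound that activates liver X receptors (LXRs), and its control received 0.1% dimethyl sulfoxide (DMSO), the vehicle. Both groups were cultured for 24 h from plating, on fibronectin and without serum, and each has 3 arrays that the series' design text calls paired. The labels name no genotype and no age of the animals, and do not say whether a pair shares its animal. The treatment test compares within pairs, so its p-values rest in part on the spread of the pair differences of these cultures. The fit also moderates that spread towards the spread of other probe sets of similar level. The standard errors (SE) and intervals below are moderated in the same way. Whether the spread of the pair differences is a spread between animals is not known.

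In the luteal cell, NR5A1 (steroidogenic factor) and NR5A2 (liver receptor homologue) bind the promoters of genes that turn cholesterol into progesterone, and NR0B1 is a corepressor of both. Progesterone acts on the gland itself through the nuclear receptor PGR and, by a route that is less well understood, through the membrane-associated haem protein PGRMC1. INHA is the alpha subunit of inhibin, which the primate corpus luteum secretes to restrain follicle-stimulating hormone, and PRLR carries the signal of prolactin, a hormone that sustains the corpus luteum in rodents. LXRs, nuclear receptors for oxysterols, switch on genes of cholesterol export and fatty acid synthesis.

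Levels are log2 values, and a probe set was called dim where it lay under 4.63, the 95th percentile of the mean levels of 42 Bacillus control probe sets. The share of probe sets above that reference was 68.8% to 74.1% per array, and array medians ran from 5.54 to 5.71. Luteal marker genes were present on every array, with 0 of the 4 measured ones dim: STAR, which carries cholesterol into mitochondria, had 10.7, 11.5 and 10.6 in T0901317 pairs 1, 2 and 3, against 11.0, 11.5 and 10.5 in DMSO. For actin, GAPDH and EF1a the array carries controls at the 3' and 5' end of the transcript, and their mean 3' minus 5' difference, a sign of RNA quality, was highest in pair 3, at 1.31 with T0901317 and 1.89 with DMSO. In the other 4 arrays it lay between 0.704 and 1.03.

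None of the 16 probe sets passed the test for a change with T0901317. By limma's moderated test with the pair as a block, 0 of 16 passed an adjusted p of 0.05, and every adjusted p rounded to 1.00. Over all probe sets 45 passed, or 0.0853%, so a count of 0 among 16 lies near the background. The calls that were higher with T0901317 made up 0.0606% of all probe sets and those that were lower 0.0246%. At an unadjusted p under 0.05 there was 1 of the 16, a dim probe set of PRLR, against 3.72% of all probe sets. The T0901317 and DMSO arrays overlapped for all 16 probe sets, while they did not overlap for 2.45% of all probe sets. The 16 differences ran from -0.26 to 0.12, 7 above 0 and 9 below, with a median of -0.02 against 0.0044 for all probe sets.

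The same arrays did show a response of LXR targets, which were listed with earlier results of these data known. Of 7 measured LXR targets listed as a check, 6 rose, among them MYLIP by 2.39 ± 0.11 log2 units and LPCAT3 by 1.07 ± 0.09 (SE, n = 3 pairs; limma adjusted p = 4.9e-06 and 5.1e-04). The others were SREBF1 (1.49 ± 0.14), NR1H3 (1.24 ± 0.11), ACACA (0.84 ± 0.10) and FASN (0.63 ± 0.09). ABCA1 did not pass (0.47 ± 0.13; limma adjusted p = 0.88). Averaged over the probe sets of a gene, SREBF1 had 0.92 and ACACA 0.51. The lowest difference of MYLIP over the alternatives run was 1.79. The 95% intervals of the 16 member probe sets reached at most from -0.51 to 0.49, so a 2-fold change, which is 1 on the log2 scale, lay outside all 16. This holds for the measured values and for limma's moderated intervals, which borrow spread from other probe sets. A probe set alone had 2 residual degrees of freedom, against a median total of 11.4 after moderation. For NR5A2 MmugDNA.9427.1.S1_at the pair differences ran from -0.44 to 0.56 (SD 0.50). Intervals without moderation, which can be wider, are not given here. For the 6 members with a mean at or below the dim reference, the intervals do not exclude a 2-fold change of the transcript. In data simulated from this comparison over 52766 probe sets, the fit recovered 94.0% of changes of 1 and 22.0% of changes of 0.5, and 0 of 50 changes of 0.25. The simulation held 50 changes of each size, up to a size of 2, and gave 114 calls, against 45 in the data. The adjusted threshold depends on the number of large changes, so recovery in the data may be lower. A change of 0.25, near the largest difference seen among the members, was thus not detectable in this simulation.

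**Figure D1:**
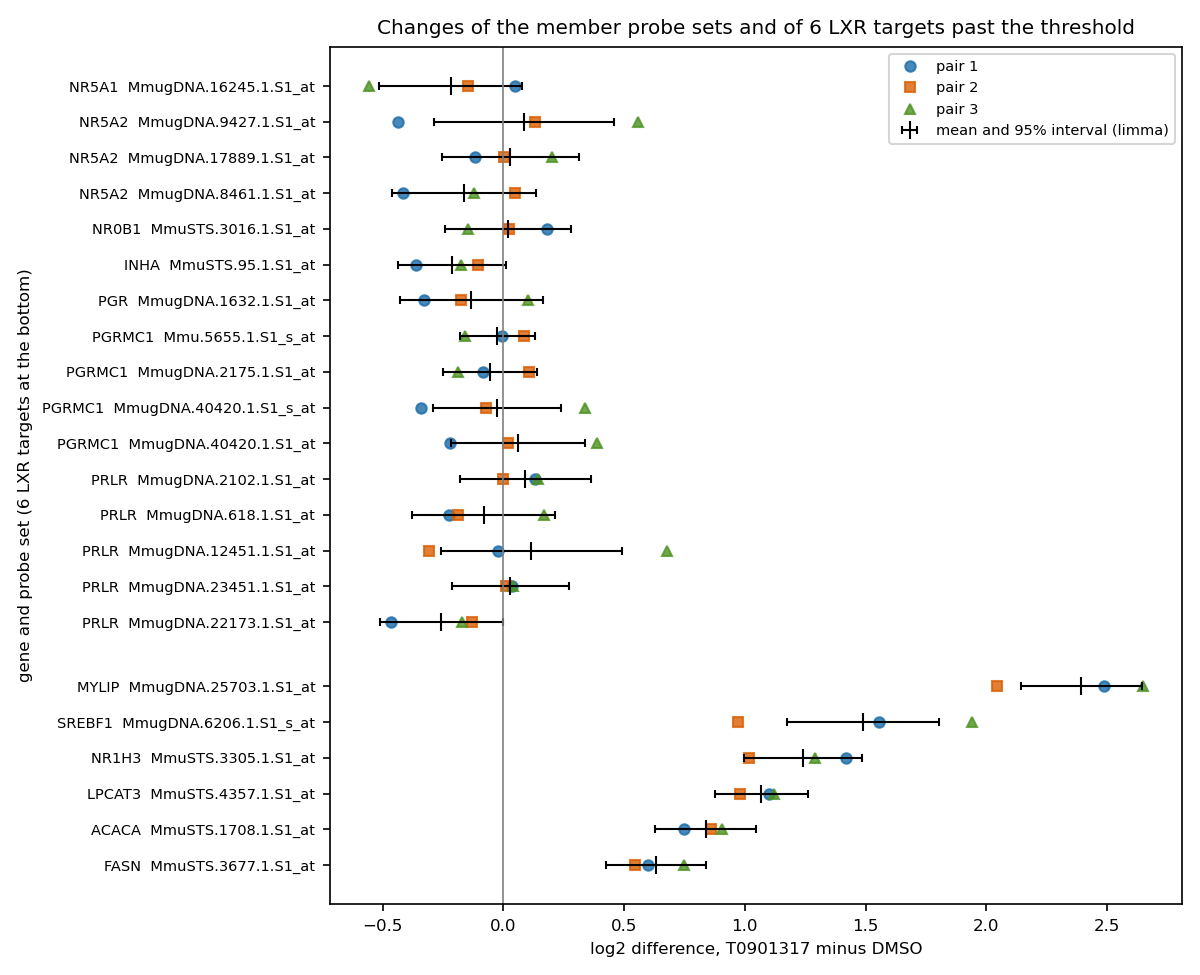
Log2 difference, T0901317 minus DMSO (horizontal axis), of the 16 member probe sets and, at the bottom, of 6 LXR targets that rose (vertical axis). Each pair has its own symbol, and black bars show limma's mean with its 95% interval; 15 of the 16 member intervals include 0, and the exception, a dim PRLR probe set, ends at -0.0024.

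Among the nuclear receptors, NR5A1 was read by a single probe set (MmugDNA.16245.1.S1_at), above the dim reference on all 6 arrays. It had 6.47, 6.26 and 6.24 in T0901317 pairs 1, 2 and 3, against 6.42, 6.41 and 6.80 in DMSO pairs 1, 2 and 3. The DMSO array of pair 3 stood above the other 5. The difference for NR5A1 was -0.22 ± 0.14 (SE, n = 3 pairs; 95% interval -0.51 to 0.08, or 0.700 to 1.06-fold; limma adjusted p = 1.00). The pair differences were 0.05, -0.15 and -0.56, and without replicate 3 the NR5A1 difference was -0.05. In the fit with the 3' minus 5' control difference as a covariate it was -0.10.

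NR5A2 was above the dim reference on all 6 arrays for each of its 3 probe sets. The brightest (MmugDNA.9427.1.S1_at) had 6.43, 5.43 and 5.47 in T0901317 pairs 1, 2 and 3, against 6.87, 5.30 and 4.91 in DMSO. Pair 1 was the highest under both treatments, and the pairs moved in different directions, by -0.44, 0.13 and 0.56. The mean difference of this NR5A2 probe set was 0.08 ± 0.17 (95% interval -0.29 to 0.46; limma adjusted p = 1.00). The second (MmugDNA.17889.1.S1_at) had 5.68, 5.30 and 5.18 with T0901317, against 5.80, 5.29 and 4.98 with DMSO, and its difference was 0.03 ± 0.13. The third (MmugDNA.8461.1.S1_at) had 5.51, 4.88 and 5.13 with T0901317, against 5.93, 4.84 and 5.25 with DMSO, and its difference was -0.16 ± 0.14. All 3 probe sets of NR5A2 thus read lower with T0901317 in pair 1, while in pair 3 the first and second read higher and the third lower. Averaged over its probe sets, the difference of NR5A2 was -0.02 ± 0.11 (95% interval -0.26 to 0.22).

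NR0B1, the corepressor, was dim on all 6 arrays (MmuSTS.3016.1.S1_at). It had 3.52, 3.27 and 3.37 in T0901317 pairs 1, 2 and 3, against 3.33, 3.24 and 3.52 in DMSO. These values give only an upper bound on its level, and its difference of 0.02 ± 0.12 says little about the transcript.

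INHA (MmuSTS.95.1.S1_at) was the one probe set above the dim reference that lay lower with T0901317 in 3 of 3 pairs, though it did not pass. It had 8.15, 7.40 and 7.71 in T0901317 pairs 1, 2 and 3, against 8.51, 7.50 and 7.88 in DMSO. The groups overlapped, because INHA differed more between pairs than within them. The pair differences of INHA were -0.36, -0.10 and -0.18, with a mean of -0.21 ± 0.10 (95% interval -0.44 to 0.01, or 0.739 to 1.01-fold; limma adjusted p = 1.00). In a fit of 1 value a gene the interval of INHA was -0.41 to -0.02, which leaves out 0, and the limma adjusted p was 0.93. Leaving out a pair gave INHA differences from -0.27 to -0.14. In all, 3 of the 16 probe sets had the same sign in all pairs, the other two being dim probe sets of PRLR with opposite signs.

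Of the receptors for progesterone, PGR lay at the dim reference (MmugDNA.1632.1.S1_at) and above it on 1 of 6 arrays. It had 4.59, 4.46 and 4.51 in T0901317 pairs 1, 2 and 3, against 4.91, 4.63 and 4.41 in DMSO. The highest PGR value was that of the DMSO array of pair 1. The difference of PGR was -0.13 ± 0.14 (95% interval -0.43 to 0.16), and -0.04 without replicate 1.

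PGRMC1 was above the dim reference on all arrays for each of its 4 probe sets. Its probe set of highest mean, whose name ends in s_at and which may thus read more than 1 transcript, had 11.8, 11.1 and 11.0 in T0901317 pairs 1, 2 and 3, against 11.8, 11.1 and 11.2 in DMSO. The values of a pair lay close together, and pair 1 stood above the other two. This PGRMC1 probe set had the narrowest interval of the 16, with a difference of -0.03 ± 0.07 (95% interval -0.18 to 0.13, or 0.883 to 1.09-fold; limma adjusted p = 1.00).

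The other probe sets of PGRMC1 had small mean differences as well. MmugDNA.2175.1.S1_at had 9.86, 9.20 and 8.92 with T0901317, against 9.94, 9.09 and 9.11 with DMSO, and a difference of -0.05 ± 0.09. MmugDNA.40420.1.S1_s_at had 8.99, 8.85 and 8.22 with T0901317, against 9.33, 8.92 and 7.89 with DMSO, and a difference of -0.02 ± 0.12. MmugDNA.40420.1.S1_at had 7.58, 7.53 and 6.91 with T0901317, against 7.80, 7.51 and 6.52 with DMSO, and a difference of 0.06 ± 0.13. The last pair of probe sets share a name stem and are not independent readings of PGRMC1.

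In pair 3 the readings of PGRMC1 parted. Its probe set of highest mean and MmugDNA.2175.1.S1_at read -0.16 and -0.19, T0901317 minus DMSO, while MmugDNA.40420.1.S1_s_at and MmugDNA.40420.1.S1_at read 0.34 and 0.39. In pair 1 the 4 values for PGRMC1 ran from -0.34 to -0.0049, all below 0. Between the arrays of a pair, T0901317 minus DMSO, the 3' minus 5' control difference itself differed by 0.18, -0.06 and -0.59 in pairs 1, 2 and 3. Its part in the parted readings was not tested, and the place of each probe set on the transcript was not used here.

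**Figure D2:**
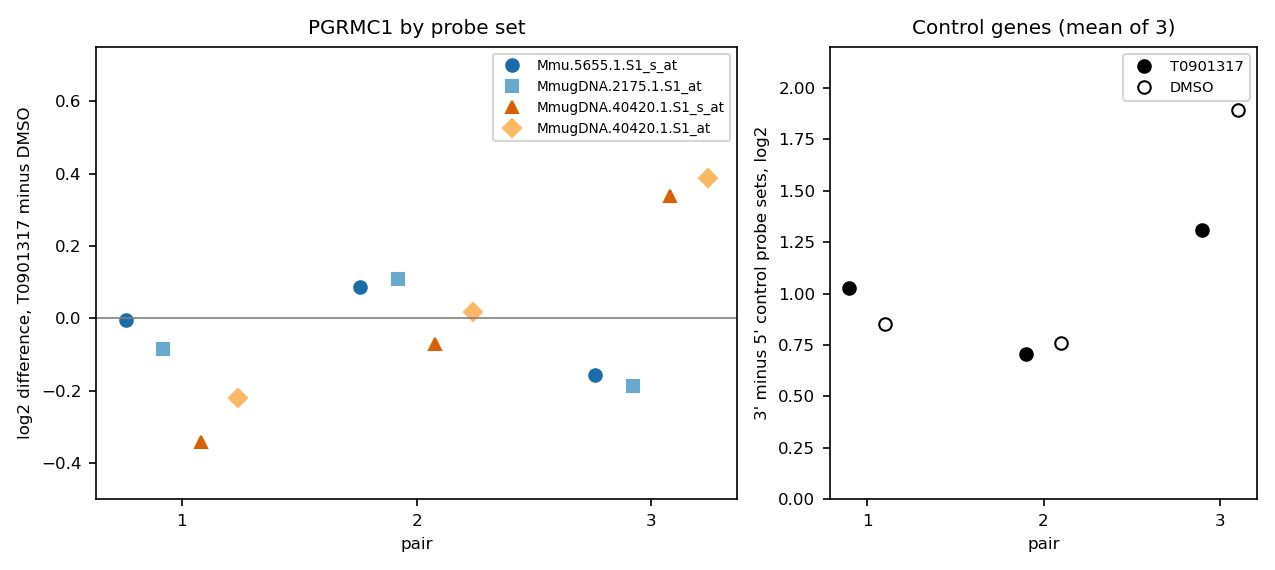
Left, log2 difference of PGRMC1, T0901317 minus DMSO (vertical axis), in each pair (horizontal axis) by probe set; right, the mean 3' minus 5' control difference on a log2 scale (vertical axis) of each array. In pair 3 a pair of probe sets lies above 0 (0.34 and 0.39) and the other pair below (-0.16 and -0.19), where the control difference is 1.31 with T0901317 and 1.89 with DMSO.

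PRLR was above the dim reference on all arrays for 1 of its 5 probe sets. That one (MmugDNA.2102.1.S1_at) had 5.47, 5.30 and 5.87 in T0901317 pairs 1, 2 and 3, against 5.34, 5.30 and 5.73 in DMSO. Its pair 2 values were equal to the last digit given, and pair 3 was the highest under both treatments. Its difference was 0.09 ± 0.12 (95% interval -0.18 to 0.36; limma adjusted p = 1.00). MmugDNA.618.1.S1_at lay around the dim reference, at 4.58, 4.50 and 4.47 with T0901317, against 4.80, 4.69 and 4.30 with DMSO, and its difference was -0.08 ± 0.13. The other 3 probe sets of PRLR were dim on all 6 arrays, and they did not move as one.

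MmugDNA.22173.1.S1_at is the PRLR probe set with an unadjusted p under 0.05. It had 3.22, 2.60 and 2.82 with T0901317, against 3.68, 2.73 and 2.99 with DMSO, and a difference of -0.26 ± 0.12 (limma adjusted p = 1.00). MmugDNA.12451.1.S1_at had 4.05, 3.60 and 4.12 with T0901317, against 4.07, 3.90 and 3.44 with DMSO, and a difference of 0.12 ± 0.17. MmugDNA.23451.1.S1_at had 3.30, 3.08 and 3.28 with T0901317, against 3.26, 3.07 and 3.24 with DMSO, and a difference of 0.03 ± 0.11. Averaged over its 5 probe sets, the difference of PRLR was -0.02 ± 0.10 (95% interval -0.24 to 0.20). Of these 5, 3 were dim on every array and 1 was above the dim reference throughout, so the average says little about the transcript.

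**Figure D3:**
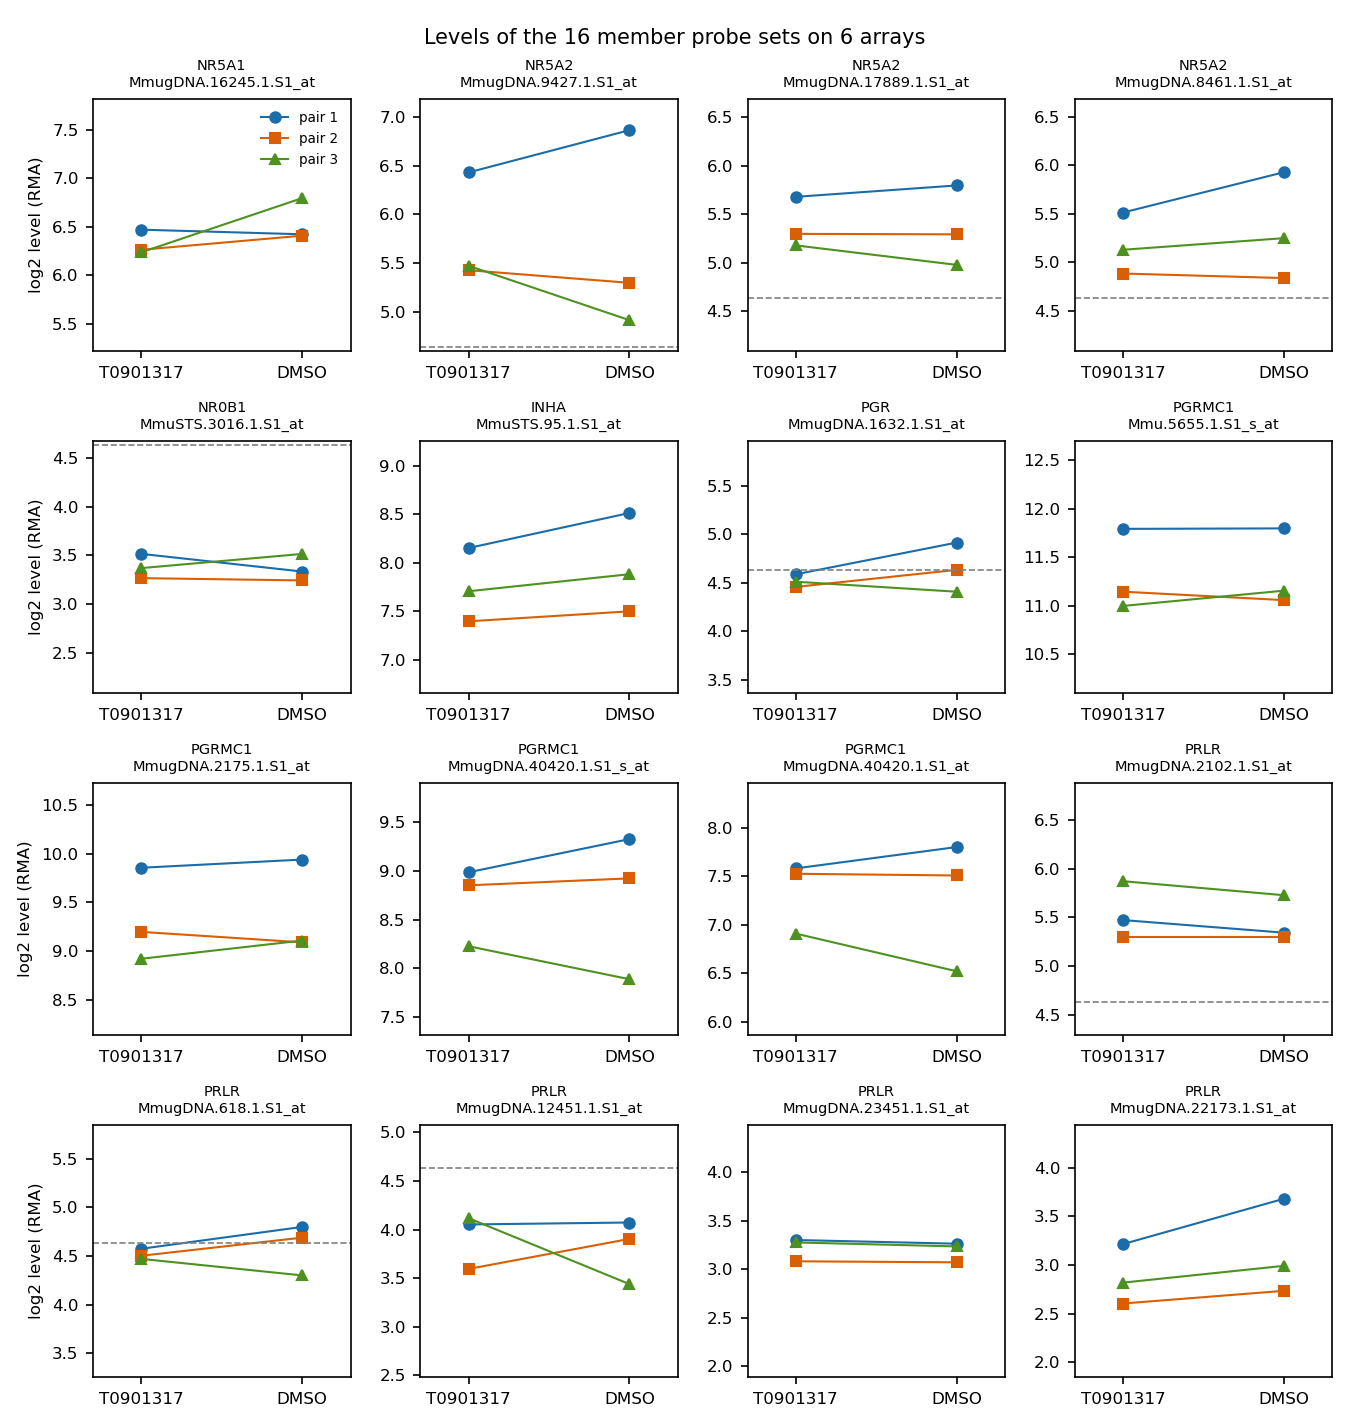
Log2 level (vertical axis, the same span in each panel) of the 16 member probe sets with T0901317 and with DMSO (horizontal axis). Lines join the arrays of a pair and the dashed line is the dim reference of 4.63 where it falls in the panel; NR0B1 and 3 of the 5 PRLR probe sets lie below it throughout.

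For 15 of the 16 probe sets the range of the pair means was wider than the treatment difference, a share near the 94.3% of all probe sets, and NR5A1 was the exception. A limma F test of the replicate terms, with treatment in the fit, asks whether a level differs between pairs; the labels do not say what else differs between them. By this test 10 of the 16 probe sets differed (adjusted p under 0.05), against 40.2% of all probe sets. Of the 10 members with a mean above the dim reference 9 differed, against 47.0% of all such probe sets, and of the 6 dim members 1 did, against 23.0%. By 1 probe set a gene, 4 of the 7 genes differed, NR5A2, INHA, PGRMC1 and PRLR, against 46.2% of named genes. Several probe sets read the same gene, so these counts hold fewer than 16 independent readings.

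NR5A2 had the widest spread of pair means among the members, 1.46 on its brightest probe set. The means of the arrays of pairs 1, 2 and 3 were 6.65, 5.36 and 5.19 on MmugDNA.9427.1.S1_at (F test adjusted p = 3.8e-04), 5.74, 5.30 and 5.08 on MmugDNA.17889.1.S1_at (adjusted p = 0.016) and 5.72, 4.86 and 5.19 on MmugDNA.8461.1.S1_at (adjusted p = 0.0051). All 3 probe sets of NR5A2 placed pair 1 highest. When only pairs 2 and 3 were compared, none of the 3 passed (F test adjusted p = 0.42, 0.28 and 0.11), so the call for NR5A2 was lost without pair 1. Fits without a pair have fewer arrays, and they called 41.3%, 28.6% and 17.1% of all probe sets without replicates 1, 2 and 3. The loss of a call in such a fit does not by itself show where the difference lies.

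NR5A1, the close relative of NR5A2, had pair means of 6.45, 6.34 and 6.52 and did not pass (F test adjusted p = 0.64). Whether NR5A1 and NR5A2 differ in how much they vary between pairs was not tested.

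INHA had pair means of 8.33, 7.45 and 7.80 (F test adjusted p = 6.4e-04). It was the one member past the threshold in all 3 comparisons of the remaining pairs, with an adjusted p of 0.039 without replicate 1. The means of PGRMC1 were 11.8, 11.1 and 11.1 on its probe set of highest mean (adjusted p = 8.6e-05) and 9.90, 9.14 and 9.01 on MmugDNA.2175.1.S1_at (adjusted p = 1.5e-04). On these probe sets pair 1 stood apart, and pairs 2 and 3 alone did not pass (adjusted p = 0.86 and 0.39).

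On the probe sets of PGRMC1 that share a stem, pair 3 stood apart instead. The pair means were 9.16, 8.89 and 8.05 on MmugDNA.40420.1.S1_s_at (F test adjusted p = 3.5e-04) and 7.69, 7.52 and 6.72 on MmugDNA.40420.1.S1_at (adjusted p = 9.8e-04). Without replicate 3 neither passed (adjusted p = 0.059 and 0.51). Pair 3 is also the pair with the highest 3' minus 5' control difference, whose part in these readings of PGRMC1 was not tested.

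For PRLR the bright probe set MmugDNA.2102.1.S1_at was highest in pair 3, with means of 5.41, 5.30 and 5.80 (F test adjusted p = 0.042). That call was lost without replicate 3 (adjusted p = 0.84), without replicate 2 (adjusted p = 0.11) after quantile normalization (adjusted p = 0.16) and after cyclic loess (adjusted p = 0.30). The dim PRLR probe set MmugDNA.22173.1.S1_at had 3.45, 2.67 and 2.91 (adjusted p = 0.0031, and 0.17 without replicate 1). The F test passed neither PGR (adjusted p = 0.33) nor NR0B1 (adjusted p = 0.49), both dim.

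**Figure D4:**
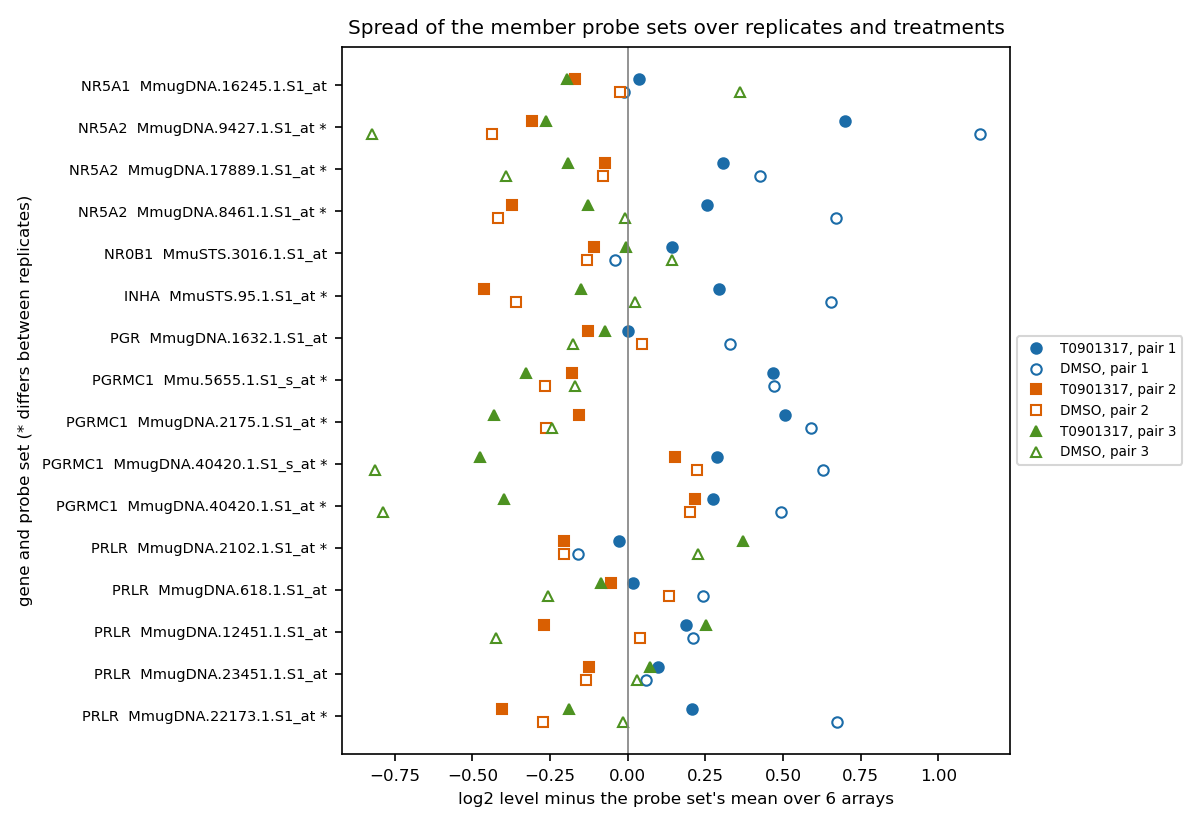
Log2 level minus the mean of its probe set over 6 arrays (horizontal axis) for the 16 member probe sets (vertical axis), filled for T0901317 and open for DMSO. An asterisk marks the 10 probe sets that differed between replicates; in 9 of them pair 1 (circles) has the highest mean, the exception being PRLR MmugDNA.2102.1.S1_at.

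Pair 1 had the highest mean in 9 of the 10 probe sets that differed, against 25.8% of all probe sets that differed. These 9 read only NR5A2, INHA, PGRMC1 and PRLR, some of them several times, so they are not independent readings. On the PGRMC1 probe sets that share a stem it was pair 3, the lowest, that stood apart. Cell markers differed between pairs too. Averaged over 9 macrophage markers, the log2 level was 7.75, 8.88 and 9.04 in T0901317 pairs 1, 2 and 3, against 7.83, 8.91 and 9.02 in DMSO, and pair 1 was the lowest for 8 of the 9. Their summed log2 level ran from 69.7 to 81.4 with T0901317 and from 70.5 to 81.2 with DMSO, with none dim on all arrays. The part of the cell mixture in the differences between pairs was not tested, and in bulk RNA fewer cells of a type and less RNA per cell cannot be told apart.

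The 4 measured luteal markers, STAR, HSD3B2, FDX1 and CYP17A1, averaged 8.47, 8.82 and 8.39 in T0901317 pairs 1, 2 and 3, against 8.74, 8.84 and 8.32 in DMSO. Pair 1 had the highest mean for 1 of the 4 and the lowest for 2. The one highest in pair 1 was HSD3B2, with means of 7.23, 6.60 and 5.90 in pairs 1, 2 and 3 (F test adjusted p = 9.5e-05). Their summed log2 level ran from 33.6 to 35.3 with T0901317 and from 33.3 to 35.4 with DMSO. Pericyte and smooth muscle markers, 4 in number, averaged 9.27, 8.61 and 8.63 with T0901317, against 9.58, 8.74 and 8.94 with DMSO, and pair 1 was highest for 3 of the 4. They summed to 34.5 to 37.1 with T0901317 and 34.9 to 38.3 with DMSO, with none dim. All 4 lay below 0 with T0901317, as did INHA, and none passed; their part in the INHA values was not tested. Of 9 endothelial markers 8 lay above 0, with a median of 0.21, and of 5 blood cell markers 5 lay below 0, with a median of -0.30, and none of these passed. Of 6 fibroblast markers 5 lay below 0 and of 3 T and NK cell markers 3 did, also without a call. Fibroblast markers averaged lowest in pair 3, with 9.13, 9.70 and 8.57 in T0901317 pairs 1, 2 and 3, against 9.27, 9.82 and 8.48 in DMSO. All 6 differed between pairs by the F test. T and NK cell markers averaged highest in pair 3, with 7.02, 7.04 and 7.90, against 7.21, 7.26 and 8.07. The part of these cells in the pair 3 readings of the members was not tested.

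The genes most like each member over the 6 arrays were searched among 11381 named genes above the dim reference. For INHA they were CNN1, POP1 and MRPS27 (Pearson r = 0.996, 0.996 and 0.995), and CNN1 is one of the smooth muscle markers above. For NR5A2 they were ZBTB39, TDRP and PALS2 (r = 0.995 to 0.998), and for PGRMC1 C1QBP, SLAIN2 and SRY (r = 0.996 each). SRY is a Y-linked gene and the cells are ovarian, so its probe set is no evidence that SRY was expressed. A level above the dim reference does not by itself show expression of the named gene. For NR5A1 they were KY, NUDT17 and MEGF10 (r = 0.996, 0.98 and 0.97). For NR0B1 they were FNDC7, ADD2 and ZNF441 (0.97 to 0.995), for PGR EEF1D, PLCL2 and PFKP (0.989 to 0.995), and for PRLR ALX1, CASQ2 and PRSS38 (0.998 each). NR0B1 was dim on all 6 arrays and PGR lay at the dim reference, so their profiles are near background. The PRLR search used MmugDNA.2102.1.S1_at alone, whose r with the other PRLR probe sets, most of them dim, ran from -0.68 to 0.59. The 6 arrays come in pairs, and the genes found are the 3 highest of 11381 for each member, so the values are a description only.

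The genes that work around these regulators were also without a call. Of 19 measured luteal transcription factors other than the members, 0 rose, 0 fell and 19 did not pass, against 0.177% of named genes called (0.113% higher and 0.0637% lower with T0901317). Their median difference was -0.05, against -0.02 for all named genes. The largest values were those of NR4A2 (-0.26 ± 0.11), an immediate early orphan nuclear receptor, and RUNX2 (-0.23 ± 0.10), a factor induced at ovulation, each below 0 in 3 of 3 pairs (limma adjusted p = 1.00 for both). Without replicate 3 the difference of RUNX2 was -0.12. GATA4 and GATA6, zinc finger factors that work with NR5A1, had -0.04 and -0.02. NR0B2, a corepressor related to NR0B1, had 0.10 ± 0.13.

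Steroid receptors and their partners, 14 measured, had a median of -0.03 and none passed. PAQR5 and PAQR7, membrane progesterone receptors, had the largest values, 0.24 ± 0.17 and -0.14 ± 0.12. Without replicate 3 they were -0.04 for PAQR5 and -0.0059 for PAQR7. PAQR5 had mean levels of 4.31 with T0901317 and 4.08 with DMSO, both under the dim reference, and passed that reference on 1 of 6 arrays. PGRMC2, the paralogue of PGRMC1, had -0.00091 ± 0.08, and FKBP4, a cochaperone of PGR, had -0.04 ± 0.09.

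For the inhibin and activin pathway, 12 of 14 measured genes lay below 0 and none passed. The median was -0.09, and 58.6% of all named genes lay below 0. SMAD7, an inhibitor of signals of the TGF-beta family, had the largest value, -0.30 ± 0.10 (95% interval -0.52 to -0.07; limma adjusted p = 1.00). FSTL3, an activin-binding protein, had -0.18 ± 0.09, and both genes lay below 0 in 3 of 3 pairs. INHBA and INHBB, which encode the beta subunits that join INHA in inhibin, had -0.15 ± 0.06 and -0.03 ± 0.15 (limma adjusted p = 1.00 for both).

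For signalling from PRLR, 13 genes were measured, with a median of -0.04, and none passed. SOCS1 and CISH, feedback inhibitors of cytokine receptors, had 0.19 ± 0.16 and -0.19 ± 0.13. Without replicate 3 they were -0.11 for SOCS1 and -0.015 for CISH, and without replicate 1 0.39 for SOCS1 and -0.35 for CISH. JAK2, the kinase bound to PRLR, had -0.16 ± 0.11, and its substrates STAT5A and STAT5B had 0.08 and -0.04. Of 11 listed gonadotropin and prostaglandin receptors 2 were measured, PTGER1 (0.02 ± 0.11) and OXTR (0.06 ± 0.12), and the other 9 were not analysed here.

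Of 12 listed steroidogenic targets of NR5A factors 9 were measured and none passed. Their median was -0.08, with 4 above 0 and 5 below. HSD3B2, which makes progesterone, had -0.18 ± 0.12 and CYP17A1, a steroid hydroxylase, -0.12 ± 0.13 (limma adjusted p = 1.00 for both). Without replicate 1 they were -0.08 for HSD3B2 and -0.0055 for CYP17A1. STAR had -0.09 ± 0.08 and FDX1, the electron donor of mitochondrial steroid synthesis, 0.10 ± 0.08.

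**Figure D5:**
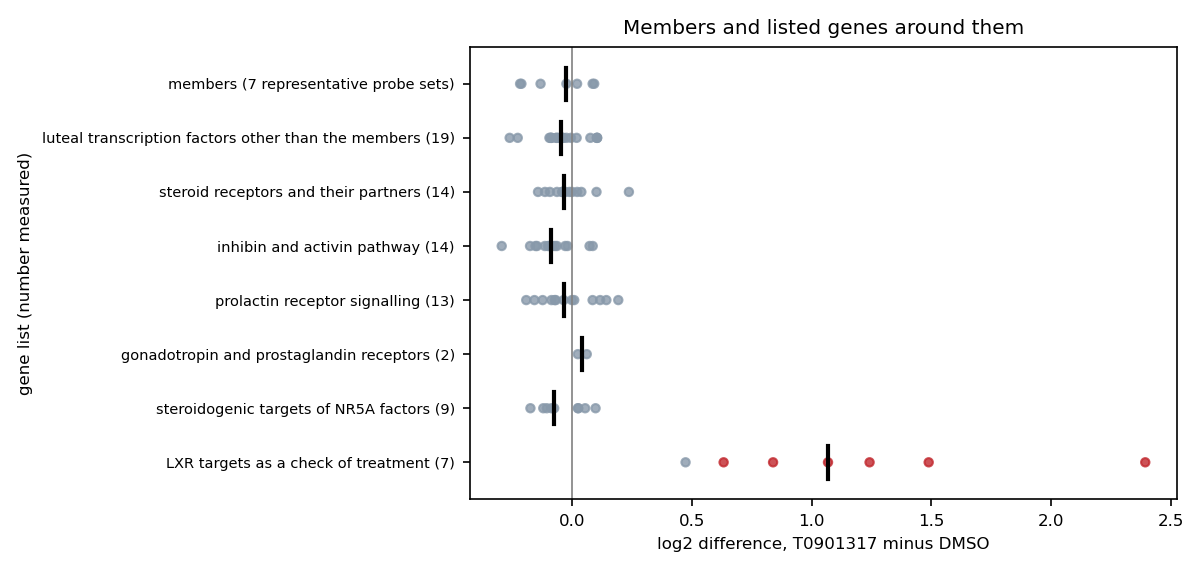
Log2 difference, T0901317 minus DMSO (horizontal axis), of the 7 members by 1 probe set each and of listed genes around them (vertical axis; the bracketed number counts the genes measured). Each point is a gene, red where limma's adjusted p was under 0.05, and black bars are medians; red points occur only among the LXR targets, 6 of 7, whose remaining point is ABCA1 at 0.47.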

How the data were processed

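The deposited values are log2 probe set levels that the authors made with RMA, per the submitters' processing notes; its version, and whether all arrays were processed together, are not given in the sources used here. No scanner files or array dates were used, so no batch beyond the replicate number could be tested. The 99 control probe sets were left out. Symbols came from the platform annotation, and all 7 member genes matched the supplied RefSeq gene table by gene number. Where 1 probe set stands for a gene, it is the one with the highest mean.

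T0901317 minus DMSO was fitted with limma 3.58.1 in R 4.3.3, blocked by replicate number, and moderated by eBayes along a variance trend. P-values are two-sided, Benjamini-Hochberg adjusted over 52766 probe sets. The F test of the replicate terms comes from the same fit. With 3 pairs the smallest p of an exact sign-flip test is 0.25. Pairing comes from the design text; same-numbered arrays' deviations from their group means correlated at 0.658, 0.813 and 0.830 across probe sets. On simulated data, 6 of 114 treatment calls were false. No pair of arrays shared more than 0.328% of values. Members and lists were chosen with earlier results of these data known. Named genes are all members, in each list those that passed, or else the pair with the largest changes, and the 3 genes most correlated with each member; the other listed genes given values were chosen after their values were seen. Alternatives covered pairing, each replicate, normalization, dim probe sets, the variance model, RNA quality and averaging of probe sets. The number of arrays limits the precision.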

Additional observations from a re-analysis of the deposited data

How the results depend on the processing

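The count of member probe sets past the threshold for T0901317 minus DMSO was 0 under all 11 alternatives run. The count over all probe sets, 45, was 0 without the replicate block, 11 without the variance trend, 27 with quantile normalization, 27 with cyclic loess and 246 with the 3' minus 5' covariate, and 35 to 328 with 1 replicate left out. Of the listed genes 6 passed, 0 without the replicate block, 3 without the variance trend and 5 to 6 with 1 replicate left out, where FASN lost its call without replicate 1 and without replicate 2. For differences between replicates, comparisons of the remaining pairs, chosen after seeing the data, gave 9045 to 21815 probe sets and 4 to 9 members. The replicate block changed no member call. The causes were not tested.

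Small differences that never passed changed sign. Without replicate 1, 2 or 3 the ranges were -0.15 to 0.34 (NR5A2, MmugDNA.9427.1.S1_at), -0.056 to 0.10 (MmugDNA.17889.1.S1_at), -0.061 to 0.10 (NR0B1), -0.081 to 0.041, -0.14 to 0.012, -0.21 to 0.13 and -0.10 to 0.20 (PGRMC1, in the order given), -0.16 to 0.33 (PRLR, MmugDNA.12451.1.S1_at), -0.043 to 0.45 (PAQR5), -0.11 to 0.39 (SOCS1) and -0.034 to 0.085 (PTGER1). Quantile normalization gave -0.024 for NR0B1, 0.0093 for PGRMC1 MmugDNA.40420.1.S1_s_at and -0.022 for PRLR MmugDNA.23451.1.S1_at. Cyclic loess gave -0.0030 for NR5A2 MmugDNA.17889.1.S1_at, -0.022 for NR0B1, 0.0036 and 0.014 for the PGRMC1 probe set of highest mean and MmugDNA.40420.1.S1_s_at, and -0.012 for PRLR MmugDNA.23451.1.S1_at. The covariate gave -0.10 and -0.034 for NR5A2 MmugDNA.9427.1.S1_at and MmugDNA.17889.1.S1_at, 0.013 and -0.059 for the PGRMC1 probe set of highest mean and MmugDNA.40420.1.S1_at, -0.050 for PRLR MmugDNA.12451.1.S1_at and -0.017 for SOCS1. Averaged probe sets gave -0.016 for NR5A2 and -0.020 for PRLR. NR5A1, INHA and PGR lay below 0 in every alternative that gave them a value. Signal near the dim reference limits PGR, NR0B1 and 4 of the 5 PRLR probe sets.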
